A study of Mus musculus with 5 samples.

Results

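The 40 genes described here are a cell cycle and mitosis module, a set chosen by name for roles in DNA replication, in mitosis and in the passage from G1 into S phase. They were found by gene symbol among the 24062 genes of a table of raw read counts from mouse mitral valve leaflets. All 40 had reads, and all 40 were among the 14244 genes that passed the filter on low counts. By role they fall into 14 S-phase genes, 19 mitotic genes and 7 genes that act in G1, the last being the D-type cyclins, their kinases and a pair of kinase inhibitors.

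RNA from mitral valve leaflets was sequenced in 5 libraries, 2 titled wild type (WT) and 3 titled knockout (KO) for Ift88, which encodes a protein of the intraflagellar transport machinery that builds cilia. The titles define the groups used below. The genotype text gives NfatC1Cre(+), a driver active in the endocardial lineage, to all 5 libraries, so both groups carry the Cre and cells of other lineages in the leaflet lie outside its reach. That text assigns Ift88f/f to the libraries titled WT and Ift88+/+ to those titled KO, which is the reverse of the titles. Age, sex and pooling of animals are not stated in the labels, nor is it stated that libraries came from separate animals, so a p-value reflects the spread among these samples and part of that may be technical.

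Ift88 itself (chromosome 14, 57424062 to 57517936, plus strand, GRCm38) was read first as a check of the labels. As CPM, reads scaled to a common library size by the TMM method, it stood at 7.53 in WT replicate 1 and 19.8 in WT replicate 2. KO replicates 1, 2 and 3 stood at 3.0, 3.91 and 0.409 CPM, each below both WT libraries. The order of Ift88 levels thus went with the titles rather than the genotype text. Every KO library was below both WT libraries for 11.1% of all genes, so this order alone does not settle the labels. Its log2 fold change of KO against WT was -2.48 (SE 1.13) and missed the threshold (adjusted p = 0.81 by the quasi-likelihood test of edgeR with Benjamini-Hochberg adjustment over the genes tested). The deleted exons are not stated in the labels, and reads of the other exons may remain in the KO counts.

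The libraries held between 23361414 and 53789026 counted reads, of which the members took 0.283 to 0.498%. Of the 200 member values (40 genes in 5 libraries), 192 rested on at least 100 reads, where the 95% exact Poisson interval reached at most 18.7% from the value. Poisson error of the counted reads was small beside the spread between libraries of a group. That spread had a median biological coefficient of variation of 62.8% over all genes. Amplified reads are not independent molecules, so the intervals do not cover the sampling of molecules, and part of that spread may be technical. Several libraries stood apart in ways that touch the results below. Markers of valve interstitial and endothelial cells were read in every library, and both lists were lowest in WT replicate 1. The 10 endothelial markers summed to 289 CPM there against 1673 to 2723 in the others, and the 10 interstitial markers to 2799 CPM against 7793 to 11554. Every KO library was above both WT libraries for 5 of the 10 endothelial and 6 of the 10 interstitial markers. These shares are larger than the 13.5% of all genes. The part of these markers in the member results was not tested. The 10 cardiomyocyte markers summed to 99.98 CPM in WT replicate 2 and to between 26341 and 57483 in the others. KO replicate 3 alone carried reads of the Y-linked genes Eif2s3y, Kdm5d and Uty (63.2, 17.6 and 46.6 CPM) and had 0 reads of Xist, a difference noticed after its values were seen. Ddx3y, also Y-linked, stood at 52.1 CPM in KO replicate 3 and had 4 reads in WT replicate 1. A code of unstated meaning recurs in the titles of 3 libraries, WT replicate 1 with KO replicates 1 and 2.

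As background, a cell that leaves quiescence first expresses D-type cyclins, which with Cdk4 or Cdk6 phosphorylate the retinoblastoma protein and release E2F factors. E2F factors switch on the replication genes of S phase, while genes for mitosis are transcribed later, in G2, from promoters that pair CCAAT boxes, bound by NF-Y, with cell cycle homology regions (CHR), bound by MuvB complexes. The primary cilium is assembled in quiescent and G1 cells and taken down before mitosis, so cilia and the cell cycle are known to be linked.

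The promoters of the members differ by class in their letters. Windows from 250 bases before to 50 bases after the start were found in RefSeq (GRCm38.p6) for 33 of the 40 members. Mcm4, Ccne2, Ccna2, Aurkb, Foxm1, Ccnd1 and Ccnd2 had no entry. The motifs searched on both strands were CCAAT, the CHR letters TTTGAA or TTCGAA, and the E2F letters TTTCCCGC, TTTGGCGC, TTTCGCGC or TTTGCCGC, and matches were allowed to overlap. The 6 stretches below show the contrast, with 4 mitotic genes on either side of 0 in the comparison of KO with WT (Mki67 and Top2a positive, Cdk1 and Cdc20 negative) and 2 subunits of the replicative helicase. Each is written on the strand of its gene, all from the minus strand except Mcm5, and stops short of any annotated exon. Capitals mark matches to any of the motifs on either strand.
Top2a, chr11:99024190-99024439: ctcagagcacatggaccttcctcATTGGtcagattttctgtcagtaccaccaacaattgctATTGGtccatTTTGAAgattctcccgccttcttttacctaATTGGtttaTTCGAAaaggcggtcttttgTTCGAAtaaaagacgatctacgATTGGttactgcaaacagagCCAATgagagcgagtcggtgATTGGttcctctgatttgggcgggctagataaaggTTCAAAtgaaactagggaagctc
Mki67, chr7:135716380-135716629: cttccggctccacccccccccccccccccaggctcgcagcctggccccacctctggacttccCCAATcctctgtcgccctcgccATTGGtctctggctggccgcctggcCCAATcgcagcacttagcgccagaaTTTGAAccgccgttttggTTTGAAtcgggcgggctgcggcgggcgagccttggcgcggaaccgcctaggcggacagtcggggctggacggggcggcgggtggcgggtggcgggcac
Cdk1, chr10:69352939-69353162: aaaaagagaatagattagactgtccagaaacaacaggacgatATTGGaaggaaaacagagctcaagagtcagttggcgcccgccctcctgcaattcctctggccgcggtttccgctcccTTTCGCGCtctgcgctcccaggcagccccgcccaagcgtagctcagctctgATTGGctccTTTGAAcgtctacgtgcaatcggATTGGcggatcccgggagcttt
Cdc20, chr4:118437353-118437593: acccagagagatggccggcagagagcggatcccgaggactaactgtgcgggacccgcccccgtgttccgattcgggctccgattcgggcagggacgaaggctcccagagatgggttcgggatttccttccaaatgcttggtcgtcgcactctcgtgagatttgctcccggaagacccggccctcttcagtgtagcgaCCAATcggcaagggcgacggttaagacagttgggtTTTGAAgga
Mcm5, chr8:75109259-75109508: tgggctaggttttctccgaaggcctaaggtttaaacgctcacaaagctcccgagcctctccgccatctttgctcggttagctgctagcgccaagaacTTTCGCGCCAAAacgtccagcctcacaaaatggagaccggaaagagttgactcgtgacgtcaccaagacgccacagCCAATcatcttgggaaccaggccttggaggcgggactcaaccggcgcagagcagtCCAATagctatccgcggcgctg
Mcm6, chr1:128359706-128359955: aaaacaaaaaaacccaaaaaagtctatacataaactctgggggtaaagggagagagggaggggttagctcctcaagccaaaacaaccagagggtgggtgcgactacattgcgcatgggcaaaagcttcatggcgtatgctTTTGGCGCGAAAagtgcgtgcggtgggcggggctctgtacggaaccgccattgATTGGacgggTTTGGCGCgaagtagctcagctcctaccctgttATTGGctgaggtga

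In these stretches Mki67, Top2a, Cdk1 and Cdc20 each held a CCAAT box and a CHR, while Mcm5 and Mcm6 held CCAAT boxes and E2F letters and no CHR. Over all promoters found, a CHR was matched in 13 of 16 mitotic members (81.2%), in 2 of 12 S-phase members (16.7%) and in 0 of 5 G1 members, against 21.7% of the 27025 genes with a promoter of this length. The 2 S-phase members with a CHR were also helicase subunits, Mcm2 and Mcm7, and Mcm2 had no E2F letters. When the search was held to the 250 bases before the start, 8 of the 16 mitotic members had a CHR (50%). The share over all genes was then 19.6%. E2F letters ran the other way and were matched in 5 of 12 S-phase members (41.7%), namely Cdk2, Mcm3, Mcm5, Mcm6 and Mcm7. Among mitotic members Cdk1 alone had a match (6.25%), and 2.6% of all genes did. A CCAAT box was matched in 15 of 16 mitotic members (93.8%), in 9 of 12 S-phase members (75%), in 2 of 5 G1 members (40%) and in 41.1% of all genes. Among the other genes of the pathway, listed further on, a CHR was matched in 31 of 41 mitotic genes (75.6%) and E2F letters in 13 of 31 S-phase genes (41.9%). Held to the 250 bases before the start, these counts were 15 of 41 (36.6%) and 9 of 31 (29%). A CCAAT box was matched in 65.9% of those mitotic genes and 58.1% of those S-phase genes, lower shares than in the members. A match is a run of letters and not a measured binding site.

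**Figure D1:**
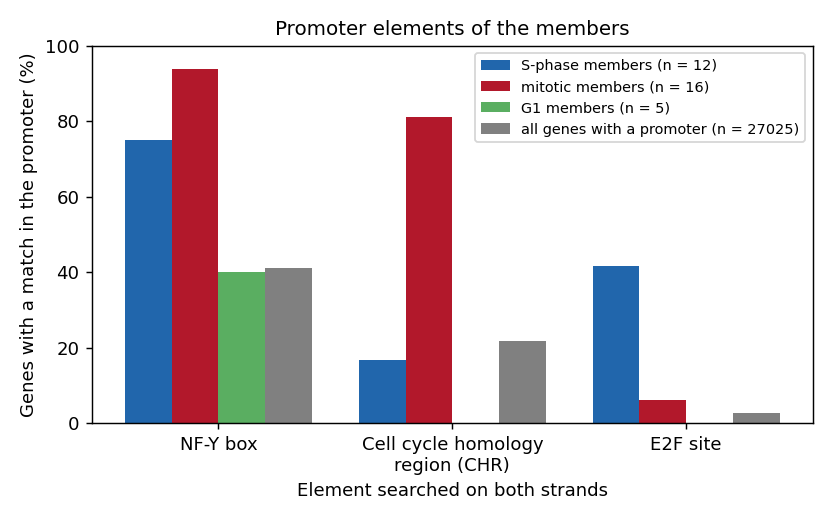
Share of genes (vertical axis, percent) whose RefSeq promoter window holds a CCAAT box (NF-Y box), a CHR or E2F letters on either strand, for 12 S-phase, 16 mitotic and 5 G1 members and for all 27025 genes with a window. The CHR bar is tallest for mitotic members (81.2%) and the E2F bar for S-phase members (41.7%).

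None of the 40 members passed the comparison of KO with WT. The edgeR quasi-likelihood test with Benjamini-Hochberg adjustment called 0 of 14244 genes (0%) and 0 members, and the smallest adjusted p among members was 0.81. At an unadjusted p under 0.05 the same test listed 832 genes (5.84%), of which 1 was a member, Ccne2, lower in KO. Of the 14244 genes, a likelihood-ratio test in edgeR called 50 and limma-voom 0. A DESeq2 Wald test called 381 of the 17148 genes with a read. In all of these calls there were 0 members. The authors' deposited table calls 184 of 12872 genes (1.43%) at an adjusted p under 0.05, again with 0 members. Every KO library stood above both WT libraries for 2 members, Ccnd1 and Cdk6, where 13.5% of all genes did so. Every KO library stood below both for 2 members, Ccne2 and Cdk4, against 11.1% of all genes. Both counts, out of 40, are below the background share. In bulk RNA, a different share of dividing cells and a different amount of this RNA per cell cannot be told apart, in either direction. Leaving out both WT replicate 1 and KO replicate 3, a choice made after the data were seen, called 305 genes and 2 members, Top2a (adjusted p = 0.036) and Cenpe, but that edgeR fit holds a single WT library and contains no spread between WT libraries.

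**Figure D2:**
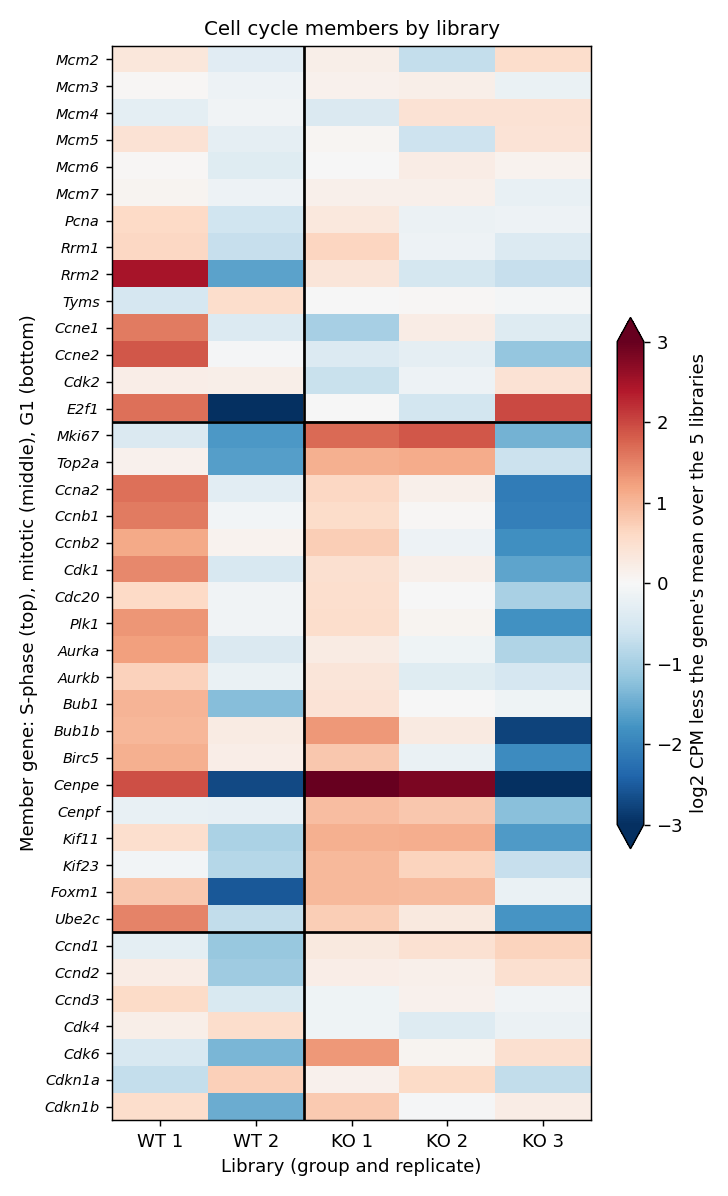
Level of each of the 40 members (rows, grouped as S-phase, mitotic and G1) in each of the 5 libraries (columns), as log2 CPM less the gene's mean over the libraries, on a colour scale that saturates at both ends. Mitotic genes are mostly red in WT replicate 1 and KO replicate 1 and blue in KO replicate 3, while most replication genes stay pale throughout.

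The S-phase group opens with the subunits of the MCM helicase, which unwinds DNA at replication forks. Mcm2 stood at 102 and 63.3 CPM in WT replicates 1 and 2 and at 89.8, 49.1 and 116 in KO replicates 1, 2 and 3. Mcm5 had WT levels of 109 and 66.3 CPM and KO levels of 83.5, 52.2 and 107 CPM. For both genes KO replicate 2 was the lowest library, the groups overlapped, and the log2 fold changes were 0.05 (SE 0.47) and -0.12 (SE 0.44). Mcm3 read 69.7 and 61.4 CPM in the WT libraries and 74.4, 76.1 and 59.3 in the KO libraries. Mcm7 measured 95.1 and 81.4 CPM in WT, against 101, 99.6 and 76.8 in KO. These 2 subunits had the narrowest spread of all members, with the highest library 1.28 and 1.31 times the lowest. Mcm4 had WT levels of 49.8 and 56.4 CPM and KO levels of 44.9, 81.9 and 82.4 CPM. Mcm6 read 180.1 and 137 CPM in the WT libraries and 175, 205 and 188 in the KO libraries. Their log2 fold changes of 0.39 (SE 0.41) and 0.25 (SE 0.31) lay within the spread between libraries. The 6 subunits assemble into one ring, and per kilobase of transcript their levels lay within 2.01-fold to 3.35-fold of each other in a library, with Mcm6 the highest in all 5.

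Genes that supply the fork and its nucleotides were less uniform. Pcna, which encodes the sliding clamp of the polymerases, measured 213 and 93.7 CPM in WT, against 175, 124 and 127 in KO, so the KO libraries lay between the WT libraries (log2 fold change -0.11, SE 0.44). Tyms, the thymidylate synthase that makes dTMP, had WT levels of 45.8 and 93.7 CPM and KO levels of 64.1, 65.6 and 61.9 CPM, again inside the WT range (-0.13, SE 0.41). Rrm1, the large subunit of ribonucleotide reductase, read 265 and 105 CPM in the WT libraries and 268, 153 and 129 in the KO libraries. Rrm2, the small subunit whose level is known to limit the enzyme outside S phase, measured 636 and 37.6 CPM in WT, against 147, 80.2 and 71.2 in KO. WT replicate 1 was thus far above every other library for Rrm2, and WT replicate 2 was the lowest. Its log2 fold change of -1.76 (SE 1.01) turned to 1.38 when WT replicate 1 was left out.

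Cyclin E activates Cdk2 at the entry into S phase. It was the one place where a member had an unadjusted p under 0.05 in the edgeR quasi-likelihood test. In the authors' deposited table the unadjusted p was 0.0138 for Ccne2, 0.0364 for Ccnd1 and 0.0495 for Mki67. Of these, Ccnd1 and Mki67 were higher in KO. Ccne2 (chromosome 4, 11191351 to 11204779, plus strand, GRCm38) had WT levels of 74.7 and 19.8 CPM and KO levels of 15.3, 17 and 9.12 CPM. All KO libraries lay below both WT libraries, though KO replicate 2 came close to WT replicate 2. Ccne2 averaged 47.2 ± 38.8 CPM in WT (SD, n = 2) and 13.8 ± 4.15 CPM in KO (SD, n = 3), which gave a log2 fold change of -1.77 (SE 0.66, unadjusted p = 0.035, adjusted p = 0.81, edgeR quasi-likelihood test). Without WT replicate 1 the log2 fold change was -0.55, and with any other library left out it lay between -2.43 and -1.55. The authors' deposited table gives Ccne2 a log2 fold change of -1.37 with an adjusted p of 0.302. Ccne1 read 39.7 and 10.2 CPM in the WT libraries and 6.82, 15.8 and 10.4 in the KO libraries, with WT replicate 1 again the highest library and the groups overlapping. Cdk2, the partner kinase, measured 59.6 and 57.8 CPM in WT, against 32.6, 46.2 and 70.2 in KO. E2f1, the transcription factor, had the widest spread of the S-phase members: 17 and 0.589 CPM in the WT libraries and 5.37, 3.65 and 21.3 CPM in the KO libraries, a 36.2-fold range in which KO replicate 3 was the highest. Over the 14 S-phase members, 6 log2 fold changes were positive and 8 negative, with a median of -0.06 beside -0.01 over all genes tested. The median ran from -0.35 to 0.26 as each library was left out.

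Most mitotic genes differed widely between libraries of the same group. Ccnb1, the cyclin that drives entry into mitosis, stood at 494 and 157 CPM in WT replicates 1 and 2 and at 244, 169 and 39.9 in KO replicates 1, 2 and 3. Cdk1, its kinase, had WT levels of 247 and 65.1 CPM and KO levels of 127, 101 and 30.2 CPM. Cdc20, which activates the anaphase-promoting complex, read 134 and 82.2 CPM in the WT libraries and 125, 87.4 and 45.4 in the KO libraries. In all 3 genes the order was WT replicate 1, KO replicate 1, KO replicate 2, WT replicate 2, KO replicate 3, so the highest and the lowest library belonged to different groups and the rest interleaved. The log2 fold changes were -1.11 (SE 0.81), -0.86 (SE 0.76) and -0.33 (SE 0.50), none past the test. Without WT replicate 1 Cdk1 and Cdc20 turned to 0.38 and 0.04.

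Mki67 and Top2a, the usual markers of proliferating cells, had another order. Mki67 (chromosome 7, 135689784 to 135716361, minus strand, GRCm38), whose protein coats mitotic chromosomes, measured 7.26 and 2.93 CPM in WT, against 32.2, 36.0 and 3.64 in KO. Top2a (chromosome 11, 98992943 to 99024189, minus strand, GRCm38), the topoisomerase that untangles sister chromatids, had WT levels of 95.8 and 27.9 CPM and KO levels of 186, 191 and 56.3 CPM. KO replicates 1 and 2 were above both WT libraries for both genes, and KO replicate 3 lay within the WT range. The log2 fold changes were 2.23 (SE 1.10) for Mki67 and 1.22 (SE 0.75) for Top2a, with adjusted p of 0.812 and 0.854 in the edgeR quasi-likelihood test. In the authors' deposited table they were 1.22 and 0.81, with adjusted p of 0.533 and 0.749.

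The remaining mitotic genes are given by role. Among the genes of mitotic entry, Ccna2 (cyclin A2) read 538 and 139 CPM in the WT libraries and 263, 189.6 and 39.9 in the KO libraries. Ccnb2 (cyclin B2) measured 172 and 84.2 CPM in WT, against 129.5, 70.0 and 21.7 in KO. Plk1, a kinase of mitotic entry and spindle assembly, had WT levels of 73.2 and 27.3 CPM and KO levels of 42.4, 31.2 and 8.27 CPM. Each was highest in WT replicate 1 and lowest in KO replicate 3. Aurka, the centrosomal kinase that also acts in the disassembly of cilia, read 102 and 32.0 CPM in the WT libraries and 51.1, 39.3 and 23.0 in the KO libraries. Ube2c, the ubiquitin-conjugating enzyme of the anaphase-promoting complex, measured 275 and 57.9 CPM in WT, against 162, 118 and 28.5 in KO. Both had the same 5-library order as Ccnb1.

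At the centromere and the spindle checkpoint, Aurkb and Birc5 (survivin) encode parts of the chromosomal passenger complex. Aurkb had WT levels of 69.6 and 37.5 CPM and KO levels of 55.4, 33.6 and 30.2 CPM, the narrowest range among mitotic members. Birc5 read 125 and 68.7 CPM in the WT libraries and 104, 51.8 and 16.2 in the KO libraries. Bub1b, a checkpoint protein, measured 65.9 and 39.0 CPM in WT, against 81.1, 39.8 and 4.75 in KO, where KO replicate 3 alone was far below the rest. Bub1, its partner, had WT levels of 69.7 and 14.3 CPM and KO levels of 46.0, 34.1 and 31.3 CPM, and here WT replicate 2 was the lowest. Cenpf read 16.8 and 16.4 CPM in the WT libraries and 37.0, 34.5 and 8.18 in the KO libraries. Cenpe, a kinesin that moves chromosomes to the spindle equator, measured 9.09 and 0.312 CPM in WT, against 25.6 and 16.9 CPM in KO replicates 1 and 2, and had 0 reads in KO replicate 3, which allows up to 0.123 CPM (3 counts). Like Mki67 and Top2a, these 2 kinetochore genes were highest in KO replicates 1 and 2.

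The motors and the regulator complete the group. Kif11, which pushes spindle poles apart, measured 54.0 and 19.7 CPM in WT, against 80.1, 82.2 and 11.8 in KO. Kif23, a motor of cytokinesis, had WT levels of 23.8 and 13.7 CPM and KO levels of 49.2, 39.7 and 15.4 CPM. Foxm1, the transcription factor of many G2 and mitotic genes, read 28 and 2.69 CPM in the WT libraries and 31.1, 30.6 and 13.9 in the KO libraries. In each of the 3 genes KO replicates 1 and 2 were the 2 highest libraries, and KO replicate 3 was apart from them. Over the 19 mitotic members, 7 log2 fold changes were positive and 12 negative, from -1.11 to 2.23, and 0 passed the test. Their median was -0.33 beside -0.01 over all genes, and it ran from -0.81 without WT replicate 2 to 0.38 without WT replicate 1 (all genes 0.25 and 0.15).

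Read by library, KO replicate 3 was the lowest KO library and WT replicate 1 the higher WT library for every mitotic member. KO replicate 3 was below both other KO libraries for 19 of 19 mitotic members, 6 of 14 S-phase members and 1 of 7 G1 members, where 39.2% of all genes were. Its log2 CPM lay below the mean of KO replicates 1 and 2 by a median difference of -2.13 in mitotic members and -0.04 in S-phase members, with -0.04 over all genes. In WT, replicate 1 was above replicate 2 for 19 of 19 mitotic, 12 of 14 S-phase and 5 of 7 G1 members, where 48.3% of all genes were. The summed level of the 19 mitotic members was 2599 and 888 CPM in the WT libraries and 1872, 1396 and 428 CPM in the KO libraries. The WT and KO sums interleaved, so the sum does not separate the groups. The 3 libraries whose titles share a code were above the other 2 for 16 of 19 mitotic members (all but Ccnb2, Aurkb and Birc5), for 4 of 14 S-phase and 0 of 7 G1 members, where 11.7% of all genes were. These counts are descriptions of libraries and carry no test, and members of a group are not independent of one another.

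Other measures of the libraries moved with this order and are given without a cause. Alas2, an erythroid enzyme of haem synthesis, had 2435 reads in WT replicate 1, 1100 in KO replicate 1, 351 in KO replicate 2, 150 in WT replicate 2 and 0 in KO replicate 3, the same order as the mitotic sum. The 4 haemoglobin genes among the erythroid markers were listed at 0 in every library. KO replicate 3, the lowest library, was also the one with more than a trace of Y-linked reads. It had the fewest counted reads (23361414) and the fewest genes with a read (13379) as well. WT replicate 2, the second lowest, was the one with few cardiomyocyte reads. The part of each in the mitotic levels was not tested.

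The comparison of S-phase with mitotic genes is a ratio inside a library, so scaling by library all but cancels out of it. The mean log2 CPM of the 14 S-phase members less that of the 19 mitotic members was 0.29 in WT replicate 1 and 0.75 in WT replicate 2. It was -0.44 and -0.11 in KO replicates 1 and 2 and 2.14 in KO replicate 3. The means were 0.52 ± 0.32 (SD, n = 2) in WT and 0.53 ± 1.40 (SD, n = 3) in KO, a difference of 0.01 that is far inside the spread of the KO libraries. By this mean, mitotic genes were above S-phase genes in KO replicates 1 and 2 and below them in the other 3 libraries. By the log2 ratio of summed CPM, S-phase genes were higher in KO replicate 3 alone (1.40), with -0.41 and -0.0046 in WT and -0.55 and -0.38 in KO replicates 1 and 2. The sign in the WT libraries thus differed between the forms, while KO replicate 3 had the highest value in both. The KO less WT difference of the mean log2 form ran from -0.79 without KO replicate 3 to 0.49 without KO replicate 1 as each library was left out, and without both WT replicate 1 and KO replicate 3 it was -1.02. Among the 3 libraries whose titles share a code it was -0.56, from a single WT library. In KO replicate 3 the S-phase members stood at 1131 CPM in sum, between the 1070 of KO replicate 2 and the 1283 of KO replicate 1, while the mitotic sum was less than those of both. Restricting the S-phase side to the replication genes (MCM, Pcna, Rrm1, Rrm2 and Tyms) gave a difference of 0.12, and dropping Mki67, Top2a and Ccna2 from the mitotic side gave 0.16. Summed CPM gave 0.36, and genes under 3.5 kb on both sides gave 0.37.

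**Figure D3:**
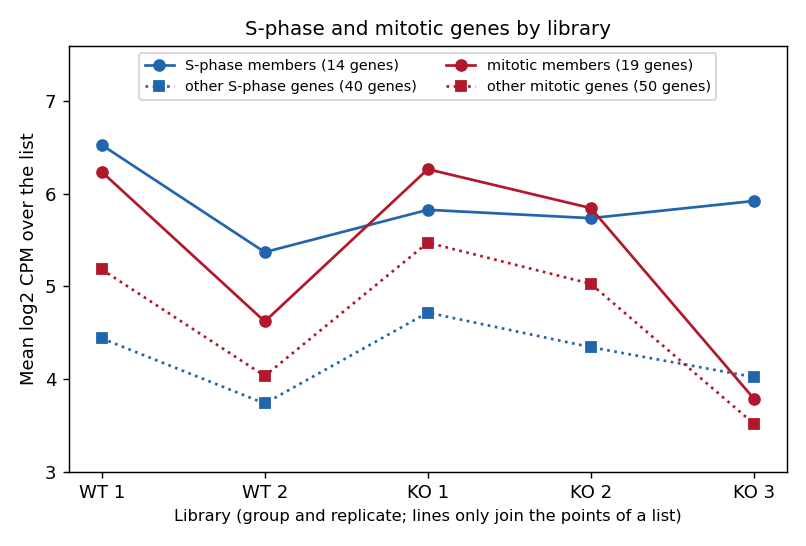
Mean log2 CPM (vertical axis) of S-phase and mitotic members and of the other genes of both kinds in each library (horizontal axis). The S-phase lines are flatter than the mitotic lines, and the mitotic members go from 6.27 in KO replicate 1 to 3.79 in KO replicate 3.

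In G1 the D-type cyclins differed among themselves. Ccnd1 (chromosome 7, 144929931 to 144939925, minus strand, GRCm38) measured 20.8 and 11.5 CPM in WT, against 31.1, 34.9 and 40.3 in KO. Each KO library was above both WT libraries, with averages of 16.2 ± 6.59 CPM in WT (SD, n = 2) and 35.5 ± 4.63 CPM in KO (SD, n = 3). This is a log2 fold change of 1.13 (SE 0.47, unadjusted p = 0.053, adjusted p = 0.81, edgeR quasi-likelihood test). In the authors' deposited table it was 0.92, with an adjusted p of 0.47. Ccnd2 had WT levels of 251 and 103 CPM and KO levels of 247, 239.6 and 298 CPM, where WT replicate 1 lay inside the KO range (log2 fold change 0.56, SE 0.45). Ccnd3 read 511 and 249.8 CPM in the WT libraries and 314, 375 and 321 in the KO libraries, all between the WT libraries (-0.18, SE 0.40). Per kilobase of transcript the order was Ccnd3, Ccnd2, Ccnd1 in all 5 libraries, with means of 91.8, 36.0 and 7.42 CPM per kilobase. The ratio of Ccnd3 to Ccnd1 was 23.8 and 21.0 in WT and 9.78, 10.4 and 7.72 in KO. Ccnd1 alone already did not overlap between the groups, so the lack of overlap in this ratio is no separate result. The ratio was not tested.

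Their kinases stood on opposite sides of WT. Cdk4 (chromosome 10, 127063534 to 127067920, plus strand, GRCm38) measured 531 and 673 CPM in WT, against 431, 362 and 414 in KO. All KO libraries were below both WT libraries, with a log2 fold change of -0.58 (SE 0.32, adjusted p = 0.832, edgeR quasi-likelihood test). Cdk6 (chromosome 5, 3341485 to 3531008, plus strand, GRCm38) had WT levels of 3.08 and 1.63 CPM and KO levels of 10.7, 4.53 and 6.02 CPM. All KO libraries were above both WT libraries, with a log2 fold change of 1.59 (SE 1.01, adjusted p = 0.86, edgeR quasi-likelihood test), and this became 0.34 once the trend with transcript length was removed. Per kilobase Cdk4 averaged 235 CPM and Cdk6 0.45, so in every library Cdk4 was the far more abundant message. Among the 7 G1 members every KO library was thus above WT for 2 and below for 1, beside 13.5 and 11.1% of all genes, and 0 of the 7 passed the test.

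The inhibitors overlapped between the groups. Cdkn1a, which encodes p21, a target of p53, read 67.9 and 183 CPM in the WT libraries and 122, 165 and 67.0 in the KO libraries (log2 fold change -0.09, SE 0.57). Cdkn1b, which encodes p27, measured 4.72 and 1.13 CPM in WT, against 5.68, 3.18 and 3.81 in KO (0.53, SE 1.19). Per kilobase Cdkn1a was above Cdkn1b in all 5 libraries. Of the 7 G1 members 4 log2 fold changes were positive and 3 negative. Their median was 0.53, and leaving out WT replicate 2 gave 0.06 while leaving out WT replicate 1 gave 1.31.

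**Figure D4:**
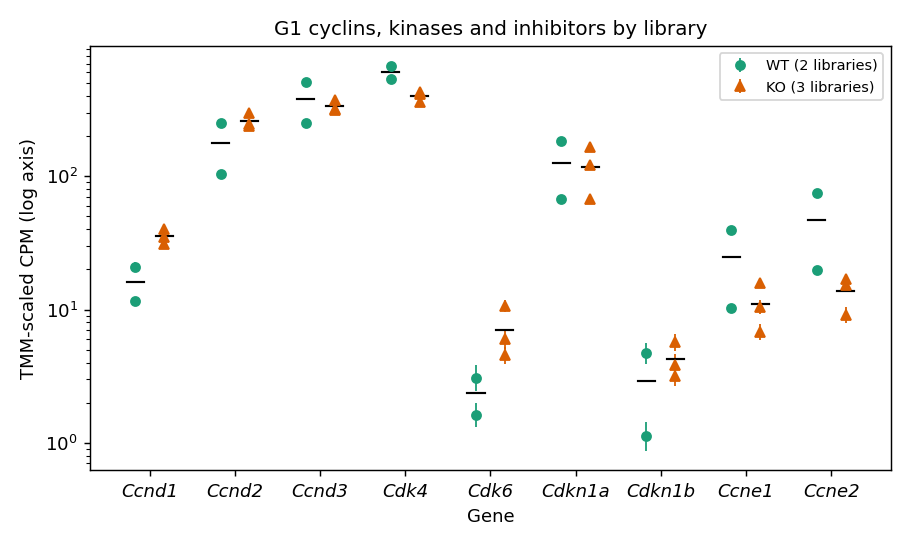
TMM-scaled CPM (log axis) of the 7 G1 members and the E-type cyclins in 2 WT libraries (circles) and 3 KO libraries (triangles), with 95% exact Poisson intervals of each value (counting error only) and the group mean as a bar. KO triangles lie above both WT circles for Ccnd1 and Cdk6 and below both for Cdk4 and Ccne2.

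The mitotic fold changes went with transcript length. The 11 mitotic members with a longest transcript under 3.5 kb, a division made after the data were seen, had 10 negative log2 fold changes and a median of -0.75, Kif23 being the exception at 0.89. The 8 of at least 3.5 kb had 6 positive ones and a median of 0.70, Cdk1 and Bub1b being negative. Over all genes tested the medians were -0.27 under 3.5 kb and 0.36 at or above it, so the same direction was present over all genes. The Pearson correlation of log2 fold change with log2 length was 0.784 over the 19 mitotic members, 0.432 over the 14 S-phase members and 0.225 over all genes. Spearman's rho was 0.681, 0.42 and 0.394 for the same sets, a smaller gap between the mitotic members and all genes. These are correlations across genes of the same 5 libraries, which share depth and preparation, and carry no p. With the trend removed per library the medians of the shorter and longer mitotic members were -0.56 and 0.27, Mki67 went from 2.23 to 0.91 and Top2a from 1.22 to 0.68.

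**Figure D5:**
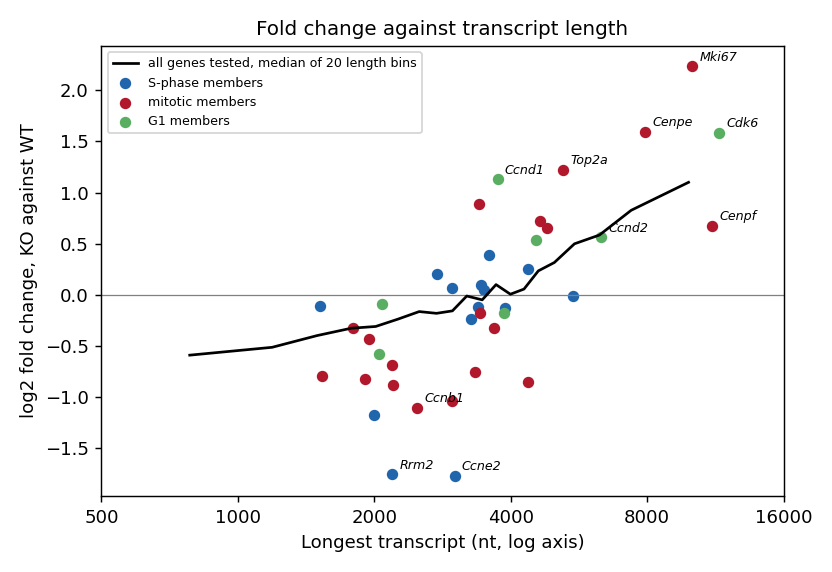
Log2 fold change of KO against WT (vertical axis) against the longest transcript of each member in nucleotides (horizontal log axis), with the median of all genes tested along length as a line. Mki67, Top2a and Cenpe lie above the line and most shorter mitotic members below it.

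The other genes of the pathway were read from 3 further lists of 40 S-phase, 50 mitotic and 28 G1 genes, all of which were tested. None passed the edgeR quasi-likelihood test (0 of 118 genes, smallest adjusted p = 0.81). The DESeq2 Wald test called 1 of the 118, the mitotic gene Kif20b (adjusted p = 0.00786). It called 381 of the 17148 genes with a read. At an unadjusted p under 0.05 there were 2 S-phase genes (both lower in KO), 2 mitotic genes and 1 G1 gene (all higher), beside 5.84% of all genes. The medians of log2 fold change were -0.28, -0.03 and -0.07, beside -0.01 over all genes. Every KO library was above both WT libraries for 6, 7 and 3 of them and below both for 5, 3 and 1, beside 13.5 and 11.1% of all genes. Part of the pattern by library was present here as well. KO replicate 3 was below both other KO libraries for 44 of 50 mitotic genes and 18 of 40 S-phase genes. The S-phase share (45.0%) was near the 39.2% of all genes. WT replicate 1 was above WT replicate 2 for 46 of 50 mitotic, 28 of 40 S-phase and 21 of 28 G1 genes, beside 48.3% of all genes. The 3 libraries whose titles share a code were above the other 2 for 27 of 50 mitotic genes (54%). That is a lower share than the 84.2% of mitotic members. For S-phase genes it was 7 of 40 (17.5%), beside 11.7% of all genes.

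The genes of smallest p in each list are given by library. They were picked by that p, which favours groups that do not overlap, so they do not stand for their lists. In the S-phase list Rpa3, the small subunit of replication protein A, had WT levels of 58.8 and 49.1 CPM and KO levels of 33.9, 22.4 and 23.9 CPM (log2 fold change -1.01, SE 0.39). Cdc45, which joins the MCM ring to form the active helicase, read 36.6 and 18.0 CPM in the WT libraries and 12.4, 9.85 and 6.51 in the KO libraries (-1.51, SE 0.59). Nasp, a histone chaperone, measured 21.0 and 32.1 CPM in WT, against 55.8, 43.1 and 56.0 in KO (0.96, SE 0.41). In each the groups did not overlap, and the directions differed. In the mitotic list Kif20b, a kinesin of cytokinesis, had WT levels of 1.90 and 0.277 CPM and KO levels of 20.5, 26.7 and 7.94 CPM (4.09, SE 1.19). It was the one gene of these lists called in the authors' deposited table, with a log2 fold change of 2.18 and an adjusted p of 0.0362. Of all genes, 1.43% were called there. Smc2, a core subunit of condensin, read 24.9 and 15.5 CPM in the WT libraries and 81.2, 62.0 and 30.5 in the KO libraries (1.52, SE 0.56). Casc5, which encodes the kinetochore protein Knl1, stood at 0.951 CPM in WT replicate 1, had 0 reads in WT replicate 2 (up to 0.052 CPM, 3 counts), and stood at 20.3, 13.9 and 5.16 in KO (4.81, SE 2.06, on 25 reads in WT). All 3 were above both WT libraries in every KO library, with KO replicate 3 the lowest of the KO libraries. All 3 have transcripts of over 3.5 kb, in a list whose median length was 3607 nt.

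In the G1 list Cdc25a, the phosphatase that activates Cdk2, measured 14.3 and 12.8 CPM in WT, against 24.6, 38.6 and 46.9 in KO (log2 fold change 1.43, SE 0.48), with no overlap. Fbxw7, which marks cyclin E for degradation, had WT levels of 12.0 and 19.9 CPM and KO levels of 14.0, 44.1 and 42.6 CPM. Cdkn2d, an inhibitor of Cdk4 and Cdk6, read 149 and 38.1 CPM in the WT libraries and 76.5, 46.8 and 34.7 in the KO libraries. For both of the last genes the groups overlapped, and for Cdkn2d the sign of the difference depended on WT replicate 1 (-0.83 with it and 0.44 without it).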

How the data were processed

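The deposited table holds raw counts per gene for 5 libraries made with the SMART-Seq v4 kit, per the labels' protocols. By design this kit copies full-length cDNA from little RNA without keeping strand. It also holds the authors' own comparison per the file headers: a mean normalized signal, a log2 fold change with its error, a test score, and p-values before and after adjustment. The submitters' processing notes list FastQC 0.11.5, cutadapt 1.11, HTSeq and DESeq2, with the builds mm10 and GRCm38. For the aligner and annotation, names were not given in the sources used here. Reads of overlapping genes, close paralogs and processed pseudogenes may be split or lost.

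From the counts, edgeR 4.0.16 in R 4.3.3 was run with filterByExpr, TMM scaling (factors 0.837 to 1.07) and a two-sided quasi-likelihood F test over 14244 genes, with calls where the Benjamini-Hochberg adjusted p was below 0.05. The scripts were tested on simulated data. DESeq2 1.42.0 and limma 3.58.1 (voom) gave alternatives, as did other scalings and filters, each library left out, the shared title code and a removed trend with transcript length (lowess per library). Lengths are those of the longest transcript in GENCODE M21 on GRCm38, matched for 23685 of 24062 genes. Log2 CPM used a prior count of 2. Poisson intervals and limits for 0 reads cover counting error only, since amplified reads are not independent molecules.

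The members and lists were chosen with earlier results of these data known. Values by library were set down for the cyclins D, inhibitors, MCM genes and common markers, for members whose groups do not overlap, for the 6 of smallest p and for the 3 pathway genes of smallest p per list. The other members' values were added after they were seen. Replicate numbers follow the deposit order and do not pair libraries. Sequences are RefSeq promoters on GRCm38.p6. One marker result is not reported here.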

Additional observations from a re-analysis of the deposited data

How the results depend on the processing

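The count of genes called by the edgeR quasi-likelihood test, 0, stayed at 0 under other scalings and filters, the shared title code and the removed length trend. It ran from 0 to 245 with 1 library left out, the 245 being without WT replicate 1, and was 305 without both WT replicate 1 and KO replicate 3 (chosen after seeing the data), 50 with a likelihood-ratio test and 381 with DESeq2. Members called went from 0 to 2 only without both of those libraries. Fits with 1 WT library assume that it varies like the KO libraries. The G1 median of 0.53 ran from 0.058 to 1.31 with 1 library left out, and was -0.047 on the shared title code, 1.21 without WT replicate 1 and KO replicate 3, and 0.063 with the length trend removed. With 1 library left out the S-phase median ran from -0.35 to 0.26, the mitotic median from -0.81 to 0.38 and the difference of S-phase less mitotic between KO and WT from -0.79 to 0.49. A CHR before the start alone was found in 8 mitotic members, not 13. Of 32 named genes 17 kept their sign under every alternative run and 15 did not, and the cause was not tested. With DESeq2 size factors Mcm2 and Mcm7 were at -0.017 and -0.0024, and with the DESeq2 Wald test Mcm2 and Mcm7 were at -0.016 and -0.0019. Library totals alone moved the median of all genes from -0.01 to 0.10, and with them Mcm5, Pcna and Ccnd3 were at 0.041, 0.073 and 0.0061. With limma-voom Mcm2 and Pcna were at -0.0028 and 0.019. With the length trend removed Mcm2, Mcm6, Pcna, Ccnd2 and Cdkn1a were at -0.054, -0.010, 0.18, -0.21 and 0.063. On the shared title code Mcm2, Tyms, Ccnd2, Cdkn1a and Cdkn1b were at -0.55, 0.50, -0.047, 1.08 and -0.089. Without WT replicate 1 and KO replicate 3 Mcm5, Pcna, Rrm2, Ccnb1, Cdk1, Cdc20, Ccnd3 and Cdkn2d were at 0.010, 0.65, 1.58, 0.37, 0.78, 0.35, 0.43 and 0.67. With 1 library left out the log2 fold changes ran for Ccne2 from -2.43 to -0.55, Mcm2 from -0.25 to 0.40, Mcm5 from -0.44 to 0.26, Mcm7 from -0.042 to 0.18, Pcna from -0.59 to 0.57, Rrm2 from -2.67 to 1.38, Tyms from -0.58 to 0.48, Cdk1 from -1.52 to 0.38, Cdc20 from -0.74 to 0.039, Ccnd3 from -0.60 to 0.40, Cdkn1a from -0.67 to 0.80, Cdkn1b from -0.16 to 1.88 and Cdkn2d from -1.50 to 0.44. Of the 200 member values 192 rested on at least 100 reads. No paired analysis was possible because the labels give the libraries no replicate numbers shared between groups.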
